A study of Homo sapiens with 12 samples.

Results

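The genes described here are 9 of the 34886 gene symbols in the mRNA tables, chosen by name as parts of transforming growth factor beta (TGF-beta) signalling. They are the ligands TGFB1 and TGFB2, the receptors TGFBR1, TGFBR2 and TGFBR3, the receptor-activated transcription factors SMAD2 and SMAD3, the corepressor SKIL and the secreted target TGFBI. RNA came from NCI-H446, an established human line of small cell lung cancer, labelled H446. CAPE cultures were exposed for 8 h to CAPE at 40 µM, the phenethyl ester of caffeic acid and a constituent of propolis, dissolved in dimethyl sulfoxide (DMSO), and DMSO cultures received an equal volume of the solvent alone. Each group had 3 mRNA libraries, numbered CAPE 1 to 3 and DMSO 1 to 3. Nothing in the labels tells separate cultures from repeat libraries, and the p-values therefore rest on a spread between libraries that could be purely technical. In bulk RNA, fewer expressing cells and less RNA per cell cannot be told apart.

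TGF-beta ligands are secreted in a latent complex and, once released, bind TGFBR2, a serine/threonine kinase that recruits and phosphorylates TGFBR1. TGFBR3, also called betaglycan, presents ligand to TGFBR2 and matters most for TGFB2, which binds TGFBR2 weakly alone. TGFBR1 phosphorylates SMAD2 and SMAD3, which join SMAD4 in the nucleus, where SKIL (SnoN) restrains their target genes. In epithelial cells the pathway is known for arrest of growth and for induction of matrix genes, and loss of TGFBR2 is a known route by which lung cancers escape it.

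Without DMSO 3, a library that stands apart, 3 of the 9 genes were lower in CAPE and 3 higher. TGFBR2, TGFBR3 and SMAD2 were lower, and TGFB1, TGFBR1 and SMAD3 were higher. The fall of TGFBR2 was the largest of the 9, with a log2 fold change of -0.77, whereas the 3 rises were between 0.21 and 0.23. With all 6 libraries the quasi-likelihood test of edgeR called none of the 9 at an adjusted p below 0.05, beside 1.95% of the 13595 genes tested. Of the 9, 1 had an unadjusted edgeR p under 0.05, TGFBR2, beside 2183 of the 13595 genes tested. TGFBR2 also passed in DESeq2's Wald test (adjusted p = 0.0199), which called 1022 of the 13595 genes. Once DMSO 3 was left out, 41.2% of 13919 genes were called (20.4% up and 20.8% down), and 6 of 9 is to be read against that share. All 9 passed the filter on low counts in both fits.

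**Figure D1:**
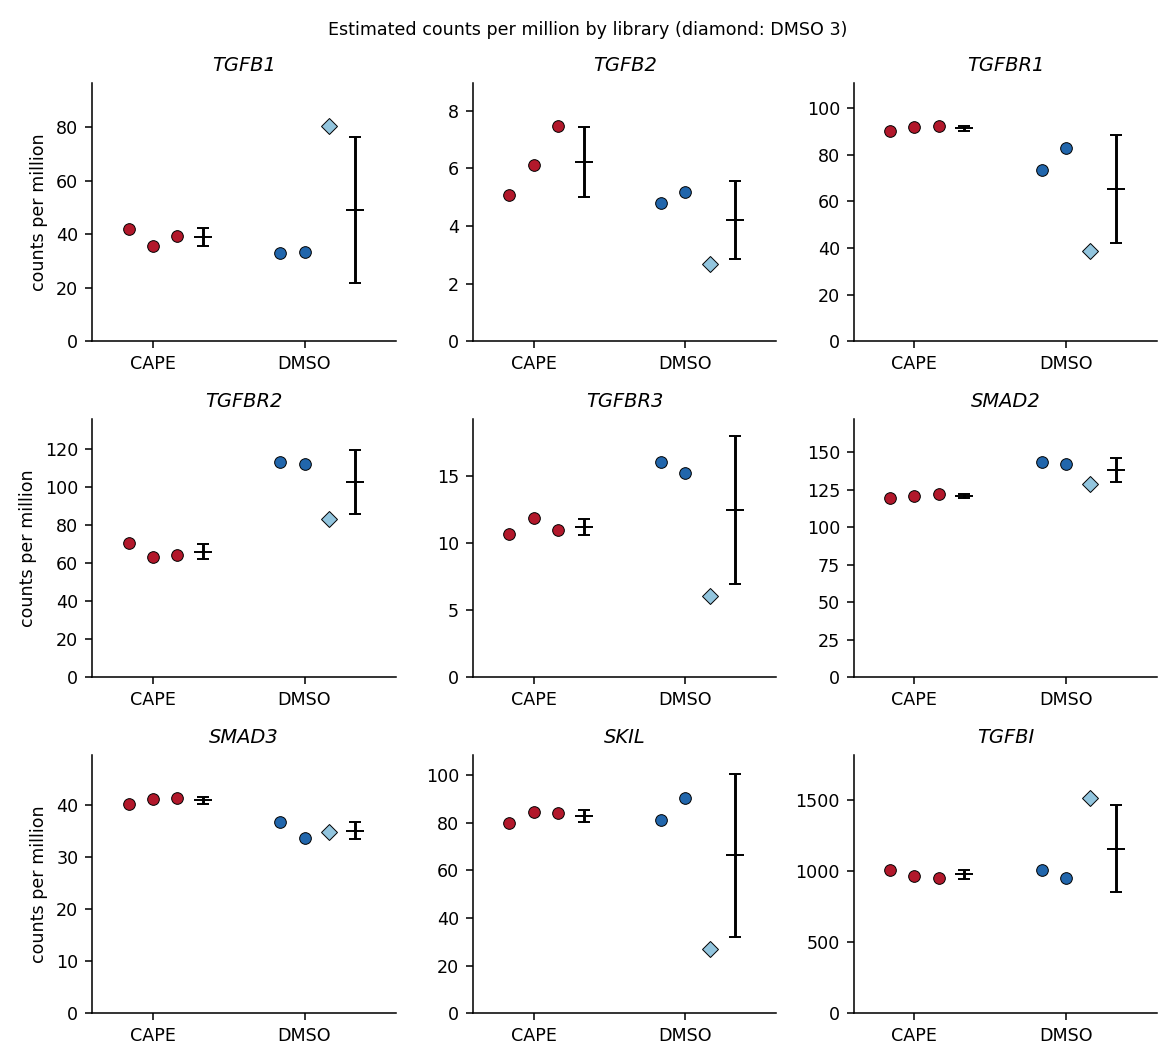
CPM (counts scaled to the size of the library, y axis from 0) of the 9 genes in each library, CAPE left and DMSO right. Points are libraries, the diamond is DMSO 3, and the bar is the mean with its SD over 3 libraries. TGFBR2, TGFBR1, SMAD2 and SMAD3 have no overlap between groups, while DMSO 3 lies far from DMSO 1 and DMSO 2 in TGFB1, SKIL and TGFBR3.

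The libraries held 17569997 to 20917508 estimated counts. DMSO 3 held the most counts but had the fewest genes detected (16207, against 17864 to 18587 in the other 5). CAPE 2 differed from CAPE 1 and CAPE 3 by 24.5 and 26.1 chi-square units per degree of freedom, against 3.18 between CAPE 1 and CAPE 3. The same measure was 5.01 between DMSO 1 and DMSO 2 and at least 318 between DMSO 3 and any other library. Neuroendocrine and lineage markers of small cell lung cancer were near 0: NEUROD1, INSM1, CHGA, NCAM1 and POU2F3 reached at most 0.369 TPM (transcript abundance per length, scaled to the library total). YAP1 measured 14.3 to 73.6 TPM, and UCHL1 15.7 to 24.3 TPM. ENO2, a glycolytic enzyme used as a neuroendocrine marker, moved with treatment, at 176, 169 and 188 CPM in CAPE and 38.9, 37.8 and 53.7 CPM in DMSO (log2 fold change 2.03, edgeR adjusted p = 0.0137 with 6 libraries). Of 11 markers of blood, endothelium, fibroblasts and normal lung, CD3E and SCGB1A1 were listed at 0 in all 6 libraries and 5 could be tested. None passed with 6 libraries, and without DMSO 3 DCN was lower (log2 fold change -0.33, edgeR adjusted p = 0.00772). The part of these markers in the results below was not tested. The fibroblast-associated proteoglycans DCN and LUM reached 22.3 and 16.4 TPM and the macrophage marker CD68 32.3 TPM. The 11 markers summed to 65.8 to 68.2 TPM in CAPE and 35.5 to 67.0 TPM in DMSO.

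The sequence just before the start of transcription is shown for TGFBR2, which fell most, and for the related pairs SMAD2 with SMAD3 and TGFB1 with TGFB2. The members of each pair share a function but moved apart or differed widely in level. Each run is the 250 bases upstream of the outermost annotated start, 5′ to 3′ along the gene, from RefSeq on GRCh38.p14. Capitals mark CAGAC, the core element that SMAD3 and SMAD4 bind, and GGGCGG, the GC box that SP1 binds, each on either strand, so that GTCTG and CCGCCC are the reverse strands. All 9 genes had at least 1 such window in the RefSeq table.
TGFBR2, chr3:30606106-30606355, plus strand: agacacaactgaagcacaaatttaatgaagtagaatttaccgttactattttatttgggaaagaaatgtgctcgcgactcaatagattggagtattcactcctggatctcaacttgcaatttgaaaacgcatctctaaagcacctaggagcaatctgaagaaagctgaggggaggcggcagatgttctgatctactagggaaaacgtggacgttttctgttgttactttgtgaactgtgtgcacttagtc
SMAD2, chr18:47930873-47931122, minus strand: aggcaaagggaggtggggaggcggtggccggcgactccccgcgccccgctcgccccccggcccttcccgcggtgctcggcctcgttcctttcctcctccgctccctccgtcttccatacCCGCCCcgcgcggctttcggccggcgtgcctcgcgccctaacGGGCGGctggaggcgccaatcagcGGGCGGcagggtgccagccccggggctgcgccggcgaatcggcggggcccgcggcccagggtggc
SMAD3, chr15:67065352-67065601, plus strand: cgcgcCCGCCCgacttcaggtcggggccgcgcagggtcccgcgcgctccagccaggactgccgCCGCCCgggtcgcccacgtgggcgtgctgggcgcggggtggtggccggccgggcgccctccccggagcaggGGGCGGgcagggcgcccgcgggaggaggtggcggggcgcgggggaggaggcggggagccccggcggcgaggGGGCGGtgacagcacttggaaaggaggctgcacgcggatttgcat
TGFB1, chr19:41353923-41354172, minus strand: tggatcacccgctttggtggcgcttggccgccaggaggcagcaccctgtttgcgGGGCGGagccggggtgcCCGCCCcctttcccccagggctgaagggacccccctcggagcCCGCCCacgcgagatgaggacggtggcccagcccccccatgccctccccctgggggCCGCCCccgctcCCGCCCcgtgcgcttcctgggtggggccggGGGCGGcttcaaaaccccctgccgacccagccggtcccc
TGFB2, chr1:218345086-218345335, plus strand: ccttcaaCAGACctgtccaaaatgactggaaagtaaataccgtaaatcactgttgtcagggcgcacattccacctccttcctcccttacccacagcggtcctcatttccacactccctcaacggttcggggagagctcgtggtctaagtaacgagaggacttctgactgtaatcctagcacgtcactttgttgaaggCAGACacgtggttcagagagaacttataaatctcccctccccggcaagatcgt
The TGFBR2 window held neither motif and had 40.8% G and C. A second annotated start of TGFBR2 has 2 GC boxes in its 250 bases. The SMAD2 and SMAD3 windows are GC-rich (78.4% and 80.8%) and held 3 and 4 GC boxes, with no CAGAC. The TGFB1 window held 6 GC boxes and no CAGAC, and the TGFB2 window 2 CAGAC and no GC box. Of 35116 windows of this length, 38.0% held CAGAC and 42.6% held GGGCGG. The palindrome GTCTAGAC, found in 0.182% of windows, was in none of the 22 windows of the 9 genes. The AP-1 site TGANTCA, found in 6.57% of windows, was in 1 of the 22, at an inner start of SMAD3. These matches describe letters in these windows and not binding.

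Of the ligands, TGFB1 (chr19:41330323-41353922 on GRCh38, as are all positions here) is the most widely expressed form. It measured 41.9, 35.6 and 39.5 CPM in CAPE 1 to 3, against 32.9, 33.5 and 80.5 CPM in DMSO 1 to 3. CAPE was above DMSO 1 and DMSO 2 in every library, and DMSO 3 was far above all other libraries. With 6 libraries the log2 fold change was -0.33 (SE 0.38, edgeR adjusted p = 0.605), and without DMSO 3 it was 0.23 (SE 0.08, edgeR adjusted p = 0.0282). The rise was no longer called in 4 of 5 fits that left out a further library (edgeR adjusted p 0.0754 to 0.118, and 0.00796 without CAPE 2). In TPM, DMSO 3 was near DMSO 1 and DMSO 2: TGFB1 measured 29.4, 22.0 and 28.0 TPM in CAPE and 20.9, 20.4 and 23.0 TPM in DMSO. That scale is itself shifted with 6 libraries. There the median log2 fold change over all genes was 0.305 (limma on log2(TPM + 1)), against -0.014 for counts. TGFB1 had 0.282, so its level in TPM does not settle whether DMSO 3 departs for this gene.

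TGFB2 (chr1:218345336-218444619), the second ligand, was the lowest of the 9 genes per transcript length, at 2.03 ± 0.370 TPM in CAPE (SD, n = 3) and 2.40 ± 0.0643 TPM in DMSO 1 and DMSO 2 (SD, n = 2). It rested on 39 to 146 estimated counts per library. It measured 5.07, 6.11 and 7.47 CPM in CAPE and 4.80, 5.17 and 2.67 CPM in DMSO, with overlap between CAPE 1 and DMSO 2. No change passed with 6 libraries (log2 fold change 0.56, SE 0.31, edgeR adjusted p = 0.355). Without DMSO 3 the value was 0.32, with a 95% interval of -0.05 to 0.68 (edgeR adjusted p = 0.154). TGFB1 stood 16.2, 12.0 and 11.4 times above TGFB2 in TPM in CAPE, and 8.53, 8.66 and 42.3 times in DMSO. The log2 ratio averaged 3.71 ± 0.28 in CAPE and 3.87 ± 1.33 in DMSO (SD, n = 3 each; exact permutation p = 1, two-sided, where 0.1 is the smallest p that 3 against 3 libraries can give). Without DMSO 3 the difference between CAPE and DMSO in this log2 ratio was 0.60 (exact permutation p = 0.1, two-sided). In CPM the ratios overlapped, at 8.26, 5.82 and 5.29 in CAPE and 6.86 and 6.47 in DMSO 1 and DMSO 2, a log2 difference of -0.07 (exact permutation p = 0.8, two-sided).

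TGFBR2 (chr3:30606356-30694142), the ligand-binding receptor kinase, gave the clearest difference of the 9. It measured 70.5, 63.3 and 64.2 CPM in CAPE, against 113, 112 and 83.5 CPM in DMSO. Every CAPE library was below every DMSO library, DMSO 3 included, as for 20.6% of all genes tested. The log2 fold change was -0.64 with 6 libraries (SE 0.17, edgeR adjusted p = 0.163) and -0.77 without DMSO 3 (SE 0.06, edgeR adjusted p = 6.14e-08). In the 5-library fit 2.6% of the genes tested had a lower value. Leaving out any further library gave -0.82 to -0.74, called each time by edgeR (adjusted p at most 2.12e-06). In TPM it measured 22.9, 20.5 and 20.9 in CAPE and 36.7, 36.6 and 13.2 in DMSO, so there DMSO 3 was below CAPE.

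TGFBR1 (chr9:99103647-99154192), the kinase that phosphorylates SMAD2 and SMAD3, was higher in CAPE in CPM. It measured 90.1, 91.6 and 92.2 CPM in CAPE and 73.5, 82.9 and 38.9 CPM in DMSO, again with no overlap. The log2 fold change was 0.49 with 6 libraries (SE 0.29, edgeR adjusted p = 0.369) and 0.22 without DMSO 3 (SE 0.06, edgeR adjusted p = 0.00771). With DMSO 1 also left out it was 0.13 (edgeR adjusted p = 0.136). In TPM TGFBR1 measured 27.09, 28.21 and 26.65 in CAPE and 22.49, 26.64 and 4.63 in DMSO, so CAPE 3 and DMSO 2 were level. limma on log2(TPM + 1) without DMSO 3 gave a log2 fold change of 0.15 (adjusted p = 0.308). The ratio of TGFBR1 to TGFBR2 in TPM, chosen after the values were seen, was 1.18, 1.38 and 1.28 in CAPE and 0.612, 0.729 and 0.352 in DMSO. TGFBR1 thus exceeded TGFBR2 per transcript length in each CAPE library and was below it in each DMSO library. The difference in mean log2 ratio was 1.24, and 0.93 without DMSO 3 (exact permutation p = 0.1, two-sided, in both, the smallest p possible).

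TGFBR3 (chr1:91680343-91906002), the ligand-presenting coreceptor, was counted 89 to 304 times per library. It measured 10.7, 11.9 and 11.0 CPM in CAPE, against 16.0, 15.2 and 6.09 CPM in DMSO. CAPE was below DMSO 1 and DMSO 2 and above DMSO 3. The log2 fold change was -0.16 with 6 libraries (SE 0.37, edgeR adjusted p = 0.799) and -0.49 without DMSO 3 (SE 0.10, edgeR adjusted p = 0.00148), and it stayed between -0.53 and -0.45 when a further library was left out. In TPM no fall appeared: TGFBR3 measured 4.66, 3.19 and 5.24 TPM in CAPE and 3.86, 4.33 and 0.672 TPM in DMSO. limma on log2(TPM + 1) without DMSO 3 gave a log2 fold change of 0.06 (adjusted p = 0.866).

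**Figure D2:**
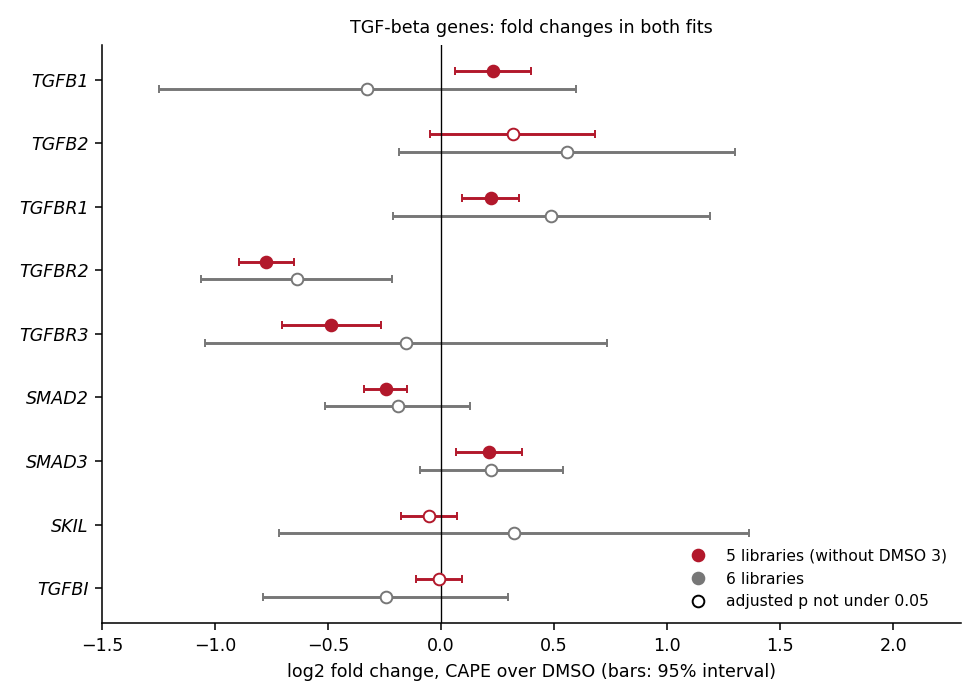
Log2 fold changes of CAPE over DMSO (x axis) with 95% intervals for the 9 genes, without DMSO 3 in red and with 6 libraries in grey. Filled points passed an adjusted p under 0.05. The 5-library intervals lie apart from 0 for 6 genes, and the 6-library interval does so for TGFBR2.

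The receptor-activated SMADs moved in opposite directions without DMSO 3. SMAD2 lies at chr18:47808957-47930872 and SMAD3 at chr15:67065602-67195169. SMAD2 measured 119.5, 121 and 122 CPM in CAPE, against 143, 142 and 129 CPM in DMSO. SMAD3 measured 40.1, 41.0 and 41.3 CPM in CAPE, against 36.7, 33.5 and 34.7 CPM in DMSO. Neither gene had overlap between the groups in CPM. DMSO 3 lay within the other DMSO libraries for SMAD3, and between them and CAPE, nearer to CAPE, for SMAD2. TGFBR1 and SMAD3 above, and TGFBR2 and SMAD2 below, made 4 of 9 genes without overlap, where 41.9% of all genes tested had none.

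SMAD2 had a log2 fold change of -0.19 with 6 libraries (SE 0.13, edgeR adjusted p = 0.411) and -0.25 without DMSO 3 (SE 0.04, edgeR adjusted p = 4.58e-04). It was called in each of 5 fits that left out a further library (edgeR adjusted p at most 0.00454). SMAD3 had 0.22 with 6 libraries (SE 0.13, edgeR adjusted p = 0.364) and 0.21 without DMSO 3 (SE 0.07, edgeR adjusted p = 0.0213). Its call was lost when DMSO 2 or CAPE 3 was also left out (edgeR adjusted p = 0.202 and 0.0628). The SMAD3 to SMAD2 ratio in TPM was 0.155, 0.246 and 0.172 in CAPE and 0.103, 0.135 and 0.115 in DMSO, without overlap. The difference in mean log2 ratio was 0.68 (exact permutation p = 0.1, two-sided, the smallest possible). It was 0.48 without CAPE 2, the library with the highest ratio, 0.67 without DMSO 3 and 0.59 without DMSO 1. In each of these the exact permutation p was 0.2, two-sided. In CPM the difference with 6 libraries was 0.41.

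SKIL (chr3:170357715-170396849), a corepressor that TGF-beta signalling first degrades and later induces, measured 79.7, 84.4 and 84.2 CPM in CAPE and 81.3, 90.3 and 27.2 CPM in DMSO. Apart from DMSO 3 the groups overlapped. Without that library the log2 fold change was -0.05 with a 95% interval of -0.18 to 0.07 (edgeR adjusted p = 0.477), against 0.32 (SE 0.43) with it. TGFBI (chr5:136028988-136063818), a secreted matrix protein named for its induction by TGF-beta, was by far the most abundant of the 9, at 564 ± 17.0 TPM in CAPE and 548 ± 41.9 TPM in DMSO (SD, n = 3 each). It measured 1011, 971 and 954 CPM in CAPE and 1011, 955 and 1516 CPM in DMSO. Without DMSO 3 its log2 fold change was -0.01, with a 95% interval of -0.11 to 0.09 (edgeR adjusted p = 0.878).

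Per transcript length, the order in CAPE by mean TPM was TGFBI, SMAD2 (91.9), SKIL (34.0), TGFBR1 (27.3), TGFB1 (26.5), TGFBR2 (21.4), SMAD3 (17.5), TGFBR3 (4.36) and TGFB2. TGFBR1 and TGFB1 overlapped in their libraries, as did TGFB1 and TGFBR2, and TGFBR2 and SMAD3. In DMSO 1 and DMSO 2 TGFBR2 (36.6 TPM) was level with SKIL (36.4 TPM) and above TGFBR1 (24.6 TPM) and TGFB1 (20.7 TPM). In CAPE it was below all of these in mean TPM.

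For 2 of the 9 genes, CPM and TPM disagreed in direction without DMSO 3, and effective transcript length, the count divided by the TPM and scaled to each library's median, differed between the groups. The effective length of TGFB2 was 2.09, 2.52 and 2.28 in CAPE and 1.46, 1.63 and 1.64 in DMSO, without overlap. That of TGFBR3 was 1.71, 2.80 and 1.58 in CAPE and 3.08, 2.61 and 3.04 in DMSO, with CAPE 2 among the DMSO values. On the log2 scale CAPE differed from DMSO 1 and DMSO 2 by 0.58 for TGFB2 and -0.49 for TGFBR3, sizes larger than those of 98.6% and 97.7% of 12186 genes. TGFBR2 hardly moved, at 2.29, 2.33 and 2.31 in CAPE and 2.29, 2.28 and 2.13 in DMSO. The files give no transcript-level values, so which transcripts made up these lengths was not tested.

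**Figure D3:**
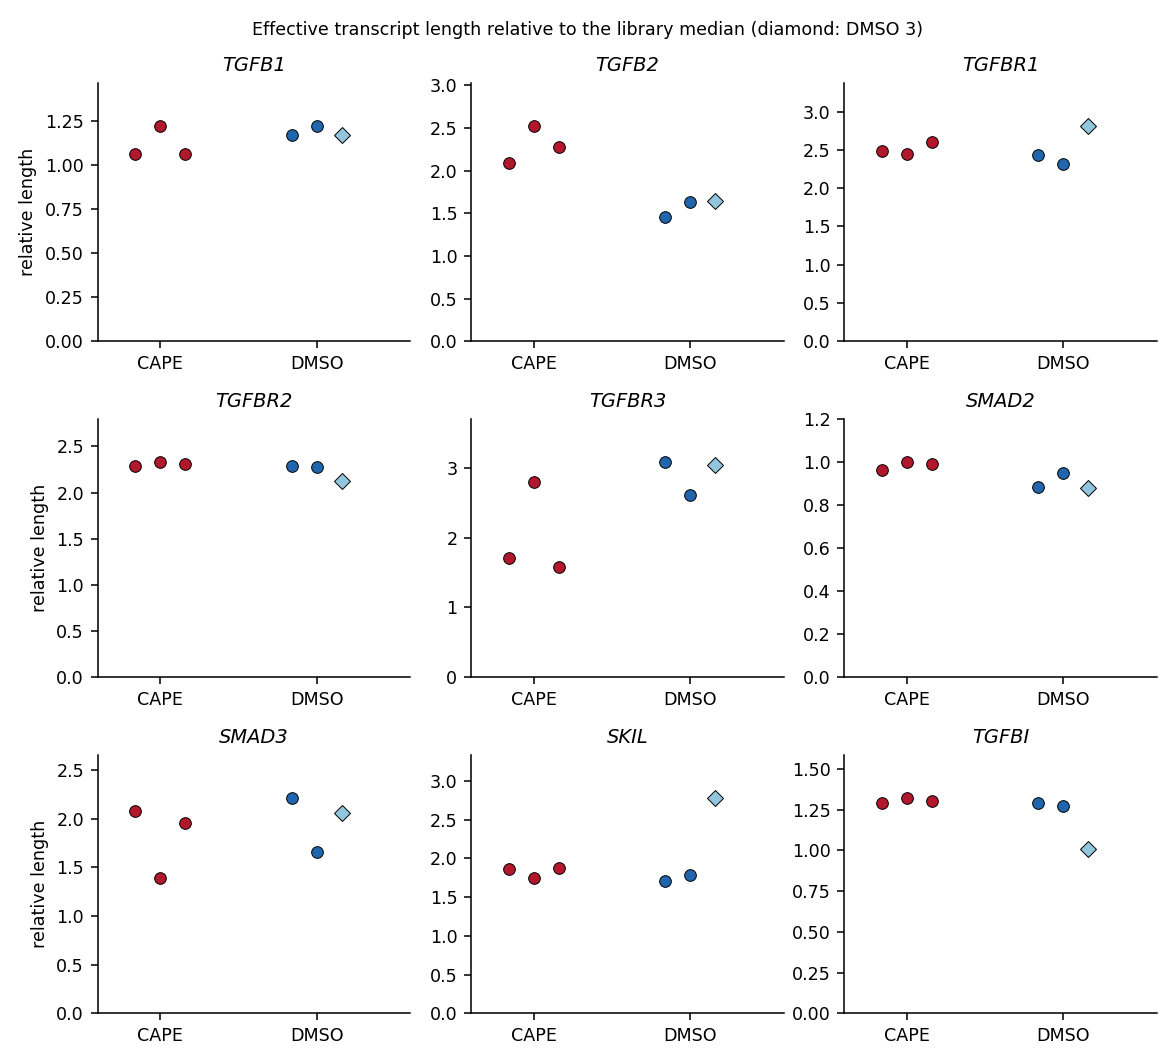
Effective transcript length relative to the median gene of the library (y axis from 0, no unit), for CAPE left and DMSO right, with 1 point per library and DMSO 3 as a diamond. TGFB2 is longer in all CAPE libraries and TGFBR3 shorter in CAPE 1 and CAPE 3, while TGFBR2 is nearly level.

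DMSO 3 departed from DMSO 1 and DMSO 2 in step with transcript length over all genes. The decile of genes with the shortest transcripts had a median difference of 0.94 (log2 CPM) from them, and the decile with the longest one of -1.02. Most of the 9 genes have long transcripts, and TGFBR1 (-1.0), TGFBR3 (-1.34), TGFB2 (-0.87), TGFBR2 (-0.43) and SKIL (-1.65) were lower in DMSO 3. TGFB1 was 1.28 higher and TGFBI 0.63 higher, whereas genes in their deciles of length had medians of 0.05 and -0.18. SMAD3 (-0.02) and SMAD2 (-0.15) departed least of the 9. With each library's trend on length removed, the 6-library fit called TGFBR2 (log2 fold change -0.92, edgeR adjusted p = 0.0280) and no other of the 9. In that fit the value of SMAD3 turned to -0.05 (edgeR adjusted p = 0.889). Without DMSO 3, removal of the trend left SMAD3 at 0.19 (edgeR adjusted p = 0.0382). There 6 of the 9 were called, beside 5851 of 13919 genes.

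**Figure D4:**
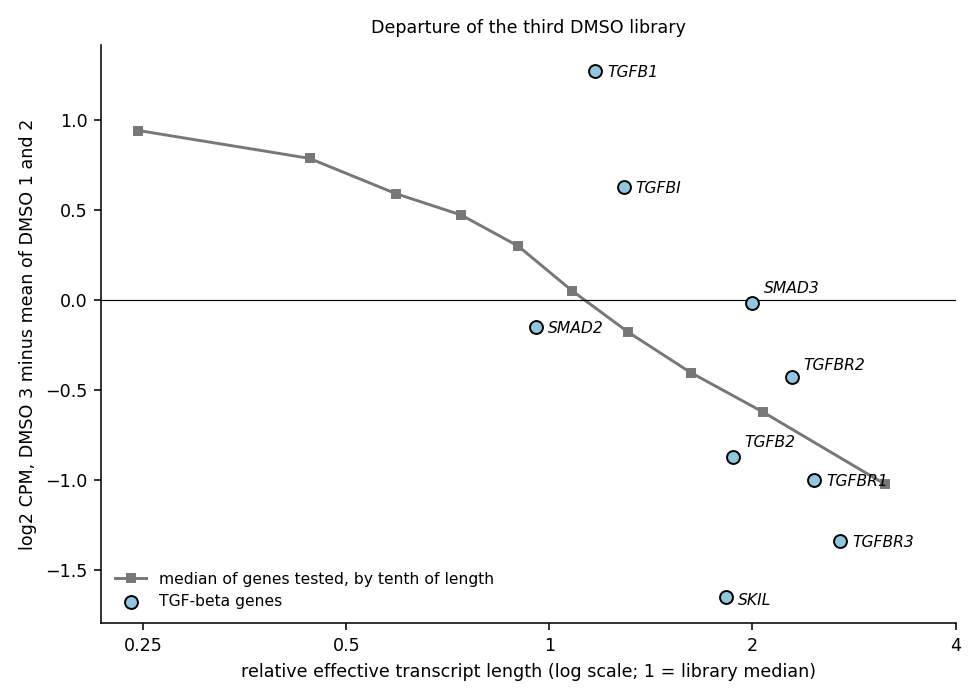
Difference in log2 CPM between DMSO 3 and the mean of DMSO 1 and DMSO 2 (y axis) against relative transcript length (x axis, log scale). Squares are medians over deciles of all genes tested, circles the 9 genes. The squares run from 0.94 to -1.02, and SKIL and TGFB1 lie farthest from them.

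Among other genes that handle latent TGF-beta, 11 of 14 listed were tested. With 6 libraries none passed, and THBS1, a matrix protein that can activate latent ligand, had the smallest p (edgeR adjusted p = 0.291). It measured 137, 129 and 125 CPM in CAPE and 252, 254 and 133 CPM in DMSO, so DMSO 3 was level with CAPE. Without DMSO 3, 4 of the 11 were called, 2 higher and 2 lower, near the 41.2% of all genes. LTBP3, a latent TGF-beta binding protein, was higher, at 20.9, 21.9 and 22.3 CPM in CAPE and 13.1, 12.5 and 27.1 CPM in DMSO, with a 5-library log2 fold change of 0.76 (edgeR adjusted p = 1.22e-05). LTBP1, of the same family, had 0.23 (edgeR adjusted p = 0.0444). THBS1 fell by 0.96 on the log2 scale (edgeR adjusted p = 7.00e-10), and FURIN, the protease that cleaves the ligand precursor, by 0.14 (edgeR adjusted p = 0.0470). With a further library left out, LTBP1 was not called in any of 5 fits (edgeR adjusted p 0.0585 to 0.195), and FURIN only without CAPE 1 (edgeR adjusted p = 0.00787, otherwise 0.0800 to 0.191). The median over the list was 0.02, and 0.18 with 6 libraries, against 0.00 and -0.01 over all genes.

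Of 12 receptor regulators and related receptors 10 were tested and none passed with 6 libraries. ZFYVE9 (SARA), an anchor that brings SMAD2 and SMAD3 to the receptor, had the smallest p, at 39.9, 41.7 and 42.2 CPM in CAPE and 31.7, 31.5 and 20.8 CPM in DMSO (edgeR adjusted p = 0.268). Without DMSO 3, 4 of the 10 were called, again near the 41.2% of all genes, and ZFYVE9 was the 1 member that was higher (log2 fold change 0.38, edgeR adjusted p = 3.59e-04). The 3 lower members were STRAP, which holds SMAD7 at the receptor (-0.15, edgeR adjusted p = 0.00752), TGFBRAP1, a receptor-associated chaperone of SMAD4 (-0.20, edgeR adjusted p = 0.0261), and the coreceptor ENG (-0.15, edgeR adjusted p = 0.0282). The calls of TGFBRAP1 and ENG were lost when DMSO 1, CAPE 2 or CAPE 3 was also left out (edgeR adjusted p 0.0530 to 0.162 and 0.0564 to 0.186). The median was -0.08, and -0.06 with 6 libraries.

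All 22 listed SMAD partners, ubiquitin ligases and cofactors were tested, and none passed with 6 libraries. NEDD4L, a ubiquitin ligase for activated SMAD2 and SMAD3, had the smallest p (edgeR adjusted p = 0.177), with 67.9, 61.1 and 64.8 CPM in CAPE and 45.5, 49.3 and 45.0 CPM in DMSO. The groups did not overlap, and DMSO 3 was level with the other DMSO libraries. In the 5-library fit 4 of the 22 were called, beside 41.2% of all genes. There NEDD4L was higher (log2 fold change 0.44, edgeR adjusted p = 8.47e-05), and so was FOXH1, a DNA-binding partner of SMAD2 (2.33, 3.14 and 3.12 CPM in CAPE, 1.63, 0.574 and 0.205 CPM in DMSO, log2 fold change 1.37, edgeR adjusted p = 0.00540). The value of FOXH1 rested on single libraries, at 0.80 without DMSO 2 as well (edgeR adjusted p = 0.0721) and 2.3 without DMSO 1 as well (edgeR adjusted p = 6.18e-04). SMAD6, an inhibitory SMAD of the bone morphogenetic protein branch, fell by 0.39 on the log2 scale (edgeR adjusted p = 4.48e-04), and PMEPA1, a TGF-beta-induced inhibitor of SMAD2 and SMAD3, by 0.22 (edgeR adjusted p = 0.0290). The call of PMEPA1 was lost when DMSO 1 or CAPE 2 was also left out (edgeR adjusted p = 0.170 and 0.116). The median was -0.01, and 0.15 with 6 libraries. SMAD4, named as the shared partner, had 67.3, 66.0 and 69.7 CPM in CAPE and 66.8, 69.3 and 52.6 CPM in DMSO (5-library log2 fold change -0.01, edgeR adjusted p = 0.877).

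Of 42 listed names of TGF-beta-induced genes 37 were tested, and with 6 libraries 3 were higher and none lower, beside 1.49% and 0.456% of all genes. BHLHE40, a transcriptional repressor, measured 295, 282 and 310.3 CPM in CAPE and 118, 118 and 121 CPM in DMSO, a log2 change by 1.31 (SE 0.13, edgeR adjusted p = 0.0159). NEDD9, a scaffold of focal adhesions, measured 14.4, 15.4 and 15.3 CPM in CAPE and 7.33, 6.63 and 7.39 CPM in DMSO, a log2 change by 1.08 (SE 0.15, edgeR adjusted p = 0.0297). In BHLHE40 and NEDD9, DMSO 3 was level with the other DMSO libraries. BHLHE40 is also a known target of hypoxia signalling. All 3 calls were lost when any of the other 5 libraries was left out in place of DMSO 3, where 0 to 17 genes passed in all.

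Without DMSO 3, 18 of the 37 were higher and 3 lower, beside 20.4% and 20.8% of all genes, with a median log2 fold change of 0.27 against 0.00 over all genes. With 6 libraries the median was 0.24, and 0.06 once the trend on length was also removed. Without DMSO 3, removal of that trend left the median at 0.23. The list was drawn up with earlier results of these data known. Its shares in either fit thus describe the listed genes and do not test the pathway. Directions within the list differed. THBS1, CDKN2B, an inhibitor of cyclin-dependent kinases 4 and 6 (-0.71, edgeR adjusted p = 5.18e-06), and PMEPA1 were lower. The 18 higher genes included KLF10 (log2 fold change 0.48, edgeR adjusted p = 4.57e-06) and CTGF (0.67, edgeR adjusted p = 5.04e-06). Larger rises were those of ANGPTL4 (2.16, edgeR adjusted p = 7.545e-11) and CDKN1A, also an inhibitor of cyclin-dependent kinases (1.11, edgeR adjusted p = 1.285e-09). With 6 libraries KLF10, CTGF, ANGPTL4 and CDKN1A were not called (edgeR adjusted p = 0.177, 0.0898, 0.223 and 0.394). SMAD7, the feedback inhibitor and a target of activated SMADs, averaged 21.5 ± 1.62 CPM in CAPE and 19.8 ± 0.680 CPM in DMSO (SD, n = 3 each), with overlap. Its log2 fold change without DMSO 3 was 0.12 (edgeR adjusted p = 0.316). PMEPA1 measured 52.7, 44.5 and 52.4 CPM in CAPE and 59.9, 56.1 and 82.1 CPM in DMSO.

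**Figure D5:**
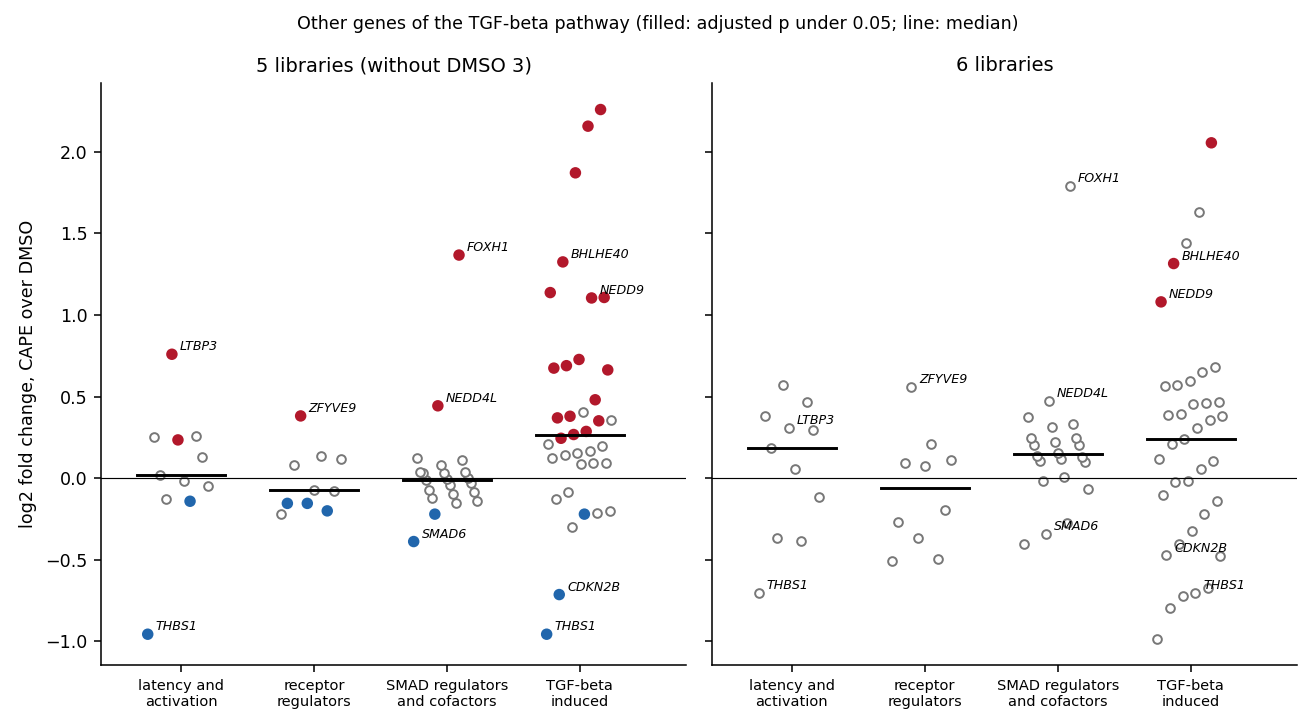
Log2 fold changes of CAPE over DMSO (y axis) for the other listed genes of the pathway, without DMSO 3 left and with 6 libraries right. Each circle is a gene, filled where its adjusted p was under 0.05 (red higher, blue lower), and lines are medians. BHLHE40 and NEDD9 are filled in both panels, and THBS1 is the lowest of the filled genes in the left panel.

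TGFBR2 had the smallest p of the 9 with 6 libraries, and the genes with the most similar pattern were sought for it among 9847 other genes of at least 3 in mean log2 CPM. The 3 with the highest Pearson r over the 6 libraries were ARHGAP19, a GTPase-activating protein (r = 0.999), ATG5, a factor of autophagosome formation (0.994), and IDI1, an enzyme of isoprenoid synthesis (0.993). In all, 252 genes had an r over 0.9. IDI1 measured 38.7, 37.5 and 37.4 CPM in CAPE and 79.0, 77.3 and 50.3 CPM in DMSO. As for TGFBR2, DMSO 3 lay between CAPE and the other DMSO libraries. The 6 points share libraries and treatment, so the r values only describe likeness.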

How the data were processed

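Messenger RNA of NCI-H446 cells was sequenced in 3 CAPE and 3 DMSO libraries, and the 6 miRNA libraries were not used here. The authors deposited estimated counts, listed by gene symbol and already whole, so rounding changed nothing. The planned count test was kept. The submitters' processing notes name kallisto 0.46.1, bcl2fastq and GRCh38. The authors also deposited TPM per gene, which divide counts by effective transcript length. The step from transcripts to genes, and any use of strand, is not given in the sources used here.

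Counts were filtered with filterByExpr, scaled by TMM (factor 0.699 in DMSO 3 and 1.07 to 1.09 in the others) and tested with edgeR 4.0.16 (quasi-likelihood, R 4.3.3), with the group as the only term. Benjamini-Hochberg adjustment ran over all genes tested, at a threshold of 0.05. The same fit was run without DMSO 3. CPM use TMM-scaled library sizes of the 6-library fit. SE is the log2 fold change divided by the square root of F, and 95% intervals use the fit's degrees of freedom. limma 3.58.1 on log2 TPM (pseudocount 1 or 0.1) and DESeq2 1.42.0 were alternatives, as was a lowess trend on length (span 0.2, genes with at least 10 counts in a library). Scripts were tested on simulated data.

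The members, lists and tests were chosen with earlier results of these data known. The naming rule took the 9 genes and, per list and fit, up to 2 called genes a direction, by smallest p, and where none was called the 1 gene of smallest p. ANGPTL4, CDKN1A, CTGF, ENG, KLF10, NEDD9, SMAD4 and SMAD7 were added after their values were seen. Gene coordinates of promoters are those of RefSeq on GRCh38.p14. Of the genes the rule took and the markers listed, 2 are not reported here, though counts and medians over the lists include them.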

Additional observations from a re-analysis of the deposited data

How the results depend on the processing

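With 6 libraries the number of genes changed was 265, and 1022 with DESeq2's Wald test, 406 with the trend on length removed, 135 and 88 with limma on log2(TPM + 1) and log2(TPM + 0.1), and 0 to 5731 when 1 library was left out (5731 without DMSO 3). With the replicate number as a block it was 0, with 1384 genes at an unadjusted p under 0.05. Same-numbered libraries deviated together by r of -0.19, 0.14 and -0.01, so the numbers were not taken as pairs. Without DMSO 3, 5731 genes changed, 4510 to 5391 when a further library was left out, and 3046 with limma on log2(TPM + 1). The TPM scale with 6 libraries moved the median of all genes to 0.31 and 0.40, against -0.01 for counts. Of the 9 TGF-beta genes 0 passed with 6 libraries and 0 to 6 with 1 library left out. TGFBR2 was the 1 gene that passed with DESeq2's Wald test and with the trend on length removed. Without DMSO 3, 6 passed, 4 to 6 with a further library left out, and 2 (TGFBR2 and SMAD2) with limma on log2(TPM + 1). With the replicate block 4 passed there, and TGFB1 and SMAD3 did not. A lone library left in an arm is assumed to vary like the other group.

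Changed genes in the lists ranged, over fits leaving out 1 library, from 0 to 4 for latency and activation, 0 to 4 for receptors, 0 to 4 for SMAD partners and 0 to 21 for induced genes. The upper value was in each case without DMSO 3, where 41.2% of 13919 genes passed. With the trend on length removed latency and activation had 1 of 11 and the induced list 6 of 37, beside 406 of 13595 genes. DESeq2's Wald test gave 1 of 22 for SMAD partners and 7 of 37 for the induced list, beside 1022 of 13595 genes. The replicate block gave 0 for the induced list, as over all genes.

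Among 117 alternatives for single genes with 6 libraries, 97 kept direction and side of the threshold, 7 passed it and 13 turned. Those that turned were TGFB1 (0.229 without DMSO 3, 0.282 and 0.292 with limma at pseudocounts of 1 and 0.1), TGFBR3 (0.591 and 0.876 with limma), SMAD2 (0.077 and 0.079 with limma), SMAD3 (-0.049 with the trend on length removed) and TGFBI (0.044 and 0.044 with limma). In these limma fits the median over all genes was 0.305 and 0.399. TGFB1, SMAD2 and TGFBI lay below it at both pseudocounts, so they were not higher relative to other genes, and TGFBR3 lay above it. Leaving out 1 library gave -0.555 to 0.229 for TGFB1, -0.486 to 0.061 for TGFBR3 and -0.055 to 0.604 for SKIL. Of 81 alternatives chosen after the data were seen for the fit without DMSO 3, 62 kept direction and side, 12 lost the call, 1 passed and 6 turned. These 6 were TGFB2 (-0.173) and TGFBR3 (0.055) with limma, TGFBI (0.008 with the replicate block), and SKIL and TGFBI with a further library left out, with ranges of -0.132 to 0.022 and -0.052 to 0.027. The difference between CAPE and DMSO in the TGFB1 to TGFB2 log2 ratio was -0.553 to 0.602 with 1 library left out. The cause of these changes was not tested. TGFB2 and TGFBR3, with the fewest counts, have the widest 5-library intervals.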
